A study of Mus musculus with 4 samples.

Results

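Neuropeptide genes were followed cell by cell in the developing medial ganglionic eminence (MGE), the proliferative zone of the ventral forebrain that makes cortical interneurons and pallidal projection neurons. The members, Sst, Npy, Tac1, Penk and Pnoc, were chosen by name and matched by gene symbol, 5 of the 32285 genes in the count matrices. Sst encodes somatostatin, Npy encodes neuropeptide Y, Tac1 encodes substance P and neurokinin A, Penk encodes the enkephalins and Pnoc encodes nociceptin. Their onset, their neuron subtypes and their detection in the same cell were described over 4 droplet libraries of e14.5 mouse MGE. There were 2 libraries of St18(-/-) embryos, called null, and 2 of WT embryos. The St18 protein is a transcription factor of the zinc finger kind, and the null allele was carried by the whole animal. All embryos came from heterozygous parents of a mixed C57/BL6 and ICR background, and MGE was pooled by genotype before dissociation.

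Neuropeptides are cut from longer precursors and released from dense core vesicles onto G protein-coupled receptors. In the mature forebrain Sst marks a major class of MGE-derived cortical interneurons, some of which also make Npy, while Npy is also made by neurogliaform cells. Tac1 and Penk mark the direct and indirect pathway neurons of the striatum, which descend from the neighbouring lateral ganglionic eminence (LGE), and Pnoc is found in several groups of inhibitory neurons.

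A total of 18267 cells were used (3758 to 6279 per library), each with at least 3000 UMIs, the unique tags that count captured RNA molecules. Library totals ran from 70991150 to 92984713 UMIs, and cells held a median of 6186 to 9352. Marker genes split the cells into 10966 neurons in 23 clusters, 7013 progenitors and small groups of erythroid, microglial and oligodendrocyte precursor cells. In neuron clusters 1, 9, 12 and 16 (833, 596, 445 and 249 cells) the leading genes held more progenitor than neuron markers. Cluster 12 was led by cell division genes, among them Cenpe and Mki67. These cells are counted as neurons below. The defining factors of the MGE were present, as Lhx6 was detected in 56.4 to 65.7% of neurons and Nkx2-1 in 60.8 to 66.4% of progenitors. Because deeper cells show more genes, each share below is the percent of cells with a UMI after every cell was thinned at random to 3000 UMIs. Summed levels are given as CPM, UMIs of a gene per 1000000 UMIs of the same cells.

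A pair of facts about the libraries touches the comparison of genotypes. Neurons of the WT libraries had St18 at 45.0 and 57.6 CPM, null replicate 1 had 25.7 CPM and null replicate 2 had 75.2 CPM, so the highest level was in a library labelled null, against its label. Counts over the whole gene can include transcript of the deleted allele, so this check does not settle the label, and the direction of Sst is given without null replicate 2 as well. In other measures null replicate 2 lay with null replicate 1, among them Npy in empty droplets (292 and 250 CPM in null, 108 and 96.2 CPM in WT) and the cells of neuron cluster 2 (108 and 48 against 369 and 285) and cluster 4 (237 and 379 against 67 and 47). In others it did not, as in cluster 0 (462 and 66 cells in null against 350 and 240 in WT) and cluster 5 (250 and 75 against 208 and 158). All these measures were chosen after their values were seen, and none of them reads the deleted allele. How many of all genes split the empty droplets by genotype was not counted. At least 3 UMIs of Xist were found in 35.3 and 64.8% of cells of null replicates 1 and 2 and in 0% of WT cells, so sex and genotype cannot be told apart outside male cells. Pairs of libraries shared 4 to 11 cell barcodes.

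Positions were taken from the GENCODE annotation of GRCm38. Sst (ENSMUSG00000004366) lies on the minus strand at chr16:23889573-23890958, Npy (ENSMUSG00000029819) on the plus strand at chr6:49822710-49829507 and Tac1 (ENSMUSG00000061762) on the plus strand at chr6:7554879-7565834. Penk (ENSMUSG00000045573) lies on the minus strand at chr4:4133531-4138819, where it overlaps A830012C17Rik on the other strand, and Pnoc (ENSMUSG00000045731) on the minus strand at chr14:65400673-65425472.

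The cAMP response element, bound by CREB, is known from the Sst promoter, so the RefSeq promoter windows (GRCm38.p6, 300 bases a gene) were searched on both strands for that element, TGACGTCA, and for its core, CGTCA. The full element contains the core, which was not listed again inside it. Capitals mark the match in the windows below, each written along the gene's strand.
Sst, chr16:23890874-23890903, minus strand: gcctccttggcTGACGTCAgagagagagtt
Tac1, chr6:7554853-7554879, plus strand: ccctaaaattgCGTCAtttcgaacaca
Tac1, chr6:7555007-7555033, plus strand: ctctacaggctCGTCAcgcctgagata
The Sst element began 48 bases before the RefSeq start site, and the Tac1 cores began 197 and 43 bases before theirs. These RefSeq starts lie inside the longer GENCODE gene spans given above. The Npy window held neither motif, and windows of Penk and Pnoc were not analysed here. Of the 32851 promoter windows, 1.79% held the full element and 20.8% the core, windows with the full element included.

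Npy was by far the most widely detected of the peptide genes. A UMI was found in 45.9 and 42.6% of neurons of null replicates 1 and 2 and in 40.7 and 34.4% of neurons of WT replicates 1 and 2. Sst was detected in 5.45 and 4.07% of null neurons and 5.06 and 4.45% of WT neurons. In all 4 libraries Npy was thus found in far more neurons than Sst.

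Pnoc was found in 2.25, 1.81, 1.76 and 3.31% of neurons, listed by library with the null pair before the WT pair and replicate 1 before replicate 2, an order kept wherever 4 values follow. Tac1 was found in 1.78, 1.46, 1.76 and 2.06% of neurons. These ranges overlapped, so the order of Tac1 and Pnoc did not hold beyond the spread of the libraries. Penk was at the limit of detection, in 0.219, 0.310, 0.187 and 0.168% of neurons, with 5 to 26 UMIs in a whole library's neurons.

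No member was detected in 48.9, 52.8, 54.4 and 59.3% of neurons, and a single one in 46.7, 44.4, 41.8 and 37.2%. Neurons with 2 members made up 2.74 to 4.19% of a library.

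RNA set free from broken cells also gives UMIs, so the same genes were counted in droplets of 250 to 600 UMIs, the peak of droplets without a cell. Npy stood at 292 and 250 CPM in the empty droplets of the null libraries and at 108 and 96.2 CPM in those of WT. From these levels, free RNA alone would be expected to mark 5.43, 4.28, 2.27 and 2.18% of neurons with Npy, far fewer than were marked. For Sst the expected shares were 1.59, 1.21, 1.70 and 1.81%, a sizeable part of the marked neurons. For Tac1 they were 0.254 to 0.573% and for Pnoc 0.0974 to 0.331%, below the measured share in each library, and for Penk 0.0124 to 0.0214%. Erythroid cells, which should lack these genes, had Npy in 6.67, 9.76, 0 and 3.23% of 31 to 45 cells a library, at a median depth of 9932 to 13003 UMIs against the 3000 to which all were thinned.

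**Figure D1:**
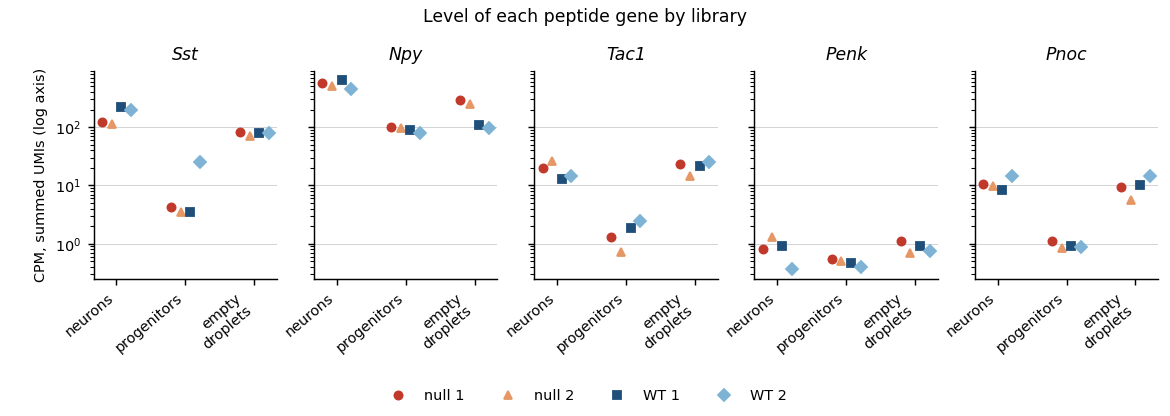
Summed level in CPM on a log axis of each gene in neurons, progenitors and empty droplets, with 1 point per library (circle and triangle for null, square and diamond for WT). Npy is the highest in all 3 compartments, and its empty droplets are split by genotype (292 and 250 against 108 and 96.2 CPM). How many of all genes are split in this way was not counted.

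Progenitors held less of every member except where the counts were too few to tell. Npy was at 99.3, 96.5, 87.6 and 80.8 CPM in progenitors against 578, 502, 638 and 446 CPM in neurons, which is 5.20 to 7.28 times higher in neurons. The progenitor level rested in large part on few cells, as 70, 57, 40 and 26 progenitors with 10 or more Npy UMIs held 43.8, 53.4, 52.5 and 40% of the progenitors' Npy. Npy was nonetheless detected in 15.0, 13.9, 10.4 and 12.3% of progenitors, above the shares expected from free RNA (3.70, 3.13, 1.52 and 1.53%). The few microglia had a higher share than progenitors in null replicate 2 (14.3%) and WT replicate 2 (13.5%), and a lower one in the others (10.0 and 5.0%). Clusters were built from these same cells, so the gap between classes is a description and was not tested.

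Sst was at 4.20, 3.56, 3.48 and 24.9 CPM in progenitors, and 3 of the 4 libraries lay close together. In WT replicate 2, 5 progenitors with 10 or more Sst UMIs held 69.2% of the progenitors' Sst. The share of progenitors with Sst was 1.26, 1.33, 0.929 and 2.31%, against 1.08, 0.882, 1.14 and 1.27% expected from free RNA. Tac1 in progenitors was at 0.711 to 2.48 CPM, Pnoc at 0.864 to 1.12 CPM and Penk at 0.399 to 0.539 CPM. For Penk, neurons (0.366 to 1.31 CPM) and progenitors overlapped.

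Onset was followed along a score of 8 neuron markers minus 11 progenitor markers, none of them a member, cut into 10 equal bins from the most progenitor-like to the most neuron-like. Detection of Npy came first. Its mean share rose from 5.46% in bin 1 to 26.0% in bin 4, where 58.3% of cells still carried cell cycle transcripts (2 or more UMIs of Mki67 and Top2a together, which are also among the progenitor markers of the score) and 35.4% were neurons. It reached 40.1% in bin 5 and its peak of 44.5% in bin 6, then lay at 35% in bin 10. In every library the peak was in bin 6, at 50.1, 45.1, 44.6 and 38.4%.

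Sst came later. Its mean share was 1.35% in bin 1, 2.16% in bin 4 and 3.29% in bin 6, and peaked at 6.53% in bin 9. The first bin to reach 50% of a library's own peak was bin 4, 4, 5 and 4 for Npy and bin 7, 4, 6 and 8 for Sst, so Npy was earlier in 3 libraries and level with Sst in null replicate 2. Pnoc reached that mark in bin 7, 7, 6 and 6 and peaked on average in bin 9 at 3.16%. Tac1 peaked in bin 10 at 2.30%, but its libraries reached the mark anywhere from bin 1 to bin 7. Penk, with 0 to 0.673% of cells in any bin, showed no readable course.

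Among cells with cell cycle transcripts, Npy was found in 19.8, 19.3, 14.0 and 16.4%, against 3.74, 3.2, 1.54 and 1.54% expected from free RNA. Sst was found in 1.5, 1.33, 1.25 and 1.90% of them, against 1.09, 0.902, 1.16 and 1.28% expected. Every share lay above the expected one, but its exact 95% interval included the expected one in every library. The Sst shares thus could not be told apart from background. Set against the shares in neurons without those transcripts, the cycling cells' share was 0.43, 0.46, 0.34 and 0.48 times as high for Npy and 0.26, 0.31, 0.24 and 0.43 times for Sst, which gives no order of onset for Sst. Tac1, Penk and Pnoc were each found in under 1% of them in every library, the highest being Pnoc at 0.815%. Bin edges cut a continuous range, and between 308 (edge of bins 1 and 2) and 1056 (edge of bins 7 and 8) cells lay within 0.05 score units of an edge. At the upper edges of bins 5 to 8, over which Sst and Pnoc rose, there were 734, 961, 1056 and 974 such cells, so the bin in which a gene reached its mark depends on where the edges fall.

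**Figure D2:**
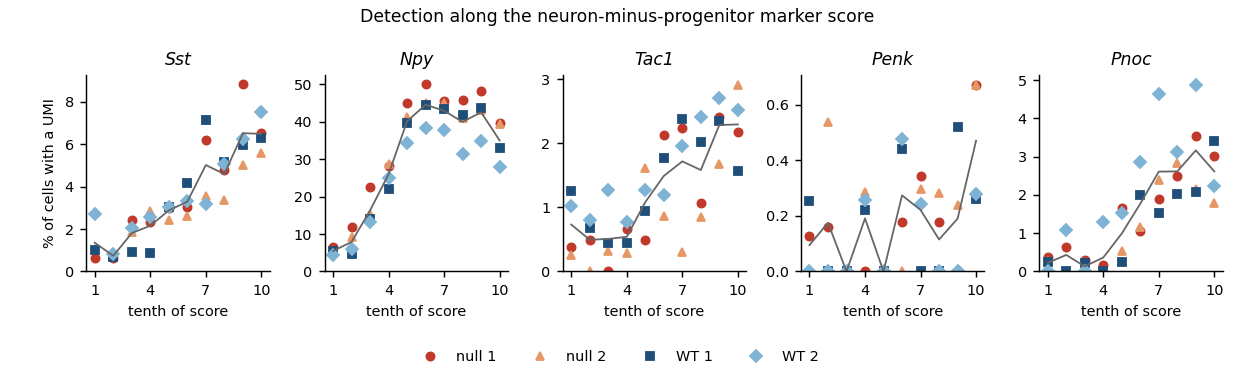
Percent of cells with a UMI of each gene (cells thinned to 3000 UMIs) over the 10 bins of the neuron-minus-progenitor marker score, with 1 point per library and a line for their mean. Npy climbs between bins 2 and 5 and peaks at 44.5% in bin 6, while Sst climbs to 6.53% in bin 9.

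Across neuron subtypes, Npy and Sst had different distributions. Clusters were named only where at least 3 markers of a type marked them, and 14 of the 23 stayed unnamed. The members were kept out of the genes used for clustering, though genes that vary with them were not. The order of clusters below is a description.

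Npy was found in 71.6, 62.0, 65.8 and 64.6% of MGE interneuron-like neurons (clusters 0 and 7, marked by Maf, Mef2c, Erbb4 and Zeb2). Clusters 0, 4, 2 and 8 led, with mean shares of 70.1, 67.4, 65.6 and 64.0%, and their ranges overlapped, so these 4 did not differ beyond the spread of the libraries. Cluster 8 was CGE-like, by Nr2f2, Prox1 and Htr3a, markers of the caudal ganglionic eminence. Clusters 2 and 4 were unnamed. Cluster 2 held 108, 48, 369 and 285 cells of the 4 libraries and cluster 4 held 237, 379, 67 and 47, so most cells of cluster 2 were WT and most of cluster 4 null.

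At the low end, Npy was found in 7.26, 6.08, 3.14 and 3.75% of ventral MGE projection-like neurons (clusters 10 and 13, marked by Lhx8, Gbx1 and Zic1). Free RNA was expected to mark 4.79, 4.45, 2.02 and 1.93% of them, inside the exact 95% intervals of the shares in 3 of 4 libraries. LGE-like neurons had Npy in 11.7, 8.24, 7.07 and 4.88%. Free RNA in LGE-like neurons would mark 4.49, 3.80, 2.02 and 1.94%. Between neuron types of the same libraries the share of cells with Npy thus differed widely.

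Sst had its highest mean share in cluster 10, where Npy was scarce. It was found in 18.1, 14.9, 11.7 and 10.0% of ventral MGE projection-like neurons. In MGE interneuron-like neurons the shares were 7.89, 7.14, 7.84 and 7.02%, a range that did not overlap with the former. Each class pools unlike clusters, and this gap did not hold between all of them. The interneuron-like clusters 0 and 7 had means of 4.25 and 13.9%, the ventral clusters 13 and 10 had 8.12 and 17.1%. Cluster 7 (8.68 to 17.8%) thus had a higher mean than cluster 13 (4.62 to 11.2%), with overlapping ranges. CGE-like neurons had Sst in 8.02, 7.24, 7.5 and 11.4%, which overlapped with the ventral type, and Npy in 59.2 to 68.3%. Cluster 10 led with a mean of 17.1% ± 4.28 (SD, n = 4), followed by the interneuron-like cluster 7 at 13.9% ± 3.79, the unnamed cluster 9 at 10.4% ± 4.70 and the CGE-like cluster 8 at 8.54% ± 1.94, and no neighbours in that order were separated by the spread of the libraries. Npy was common in clusters 7, 9 and 8, with mean shares of 57.9, 57.5 and 64.0%. Clusters 10 and 13 made up 6.55 to 13.4% of a library's neurons and held 52.0, 62.3, 49 and 66.3% of the neurons' Sst UMIs.

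In LGE-like neurons Sst was found in 2.24, 2.87, 1.35 and 1.83%, against 1.31, 1.07, 1.52 and 1.62% expected from free RNA, values that lay inside the exact 95% intervals of the shares in 3 of 4 libraries, so Sst was not readable above background there except in null replicate 2.

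Tac1 and Pnoc were concentrated outside the interneuron-like clusters. Cluster 6, LGE-like by Ebf1, Foxp1, Foxp2, Meis2 and Isl1 and made up of 630 neurons, held 65.2% of the Tac1 UMIs and 32.3% of the Pnoc UMIs of all neurons, though it had only 5.75% of the neurons. These pooled shares differed between libraries: the LGE-like clusters together held 75.4, 73.9, 52.0 and 39.6% of a library's Tac1 UMIs and 43.7, 38.9, 33.1 and 21.1% of its Pnoc UMIs. By share of cells, cluster 14 came first for Tac1 at 11.6% ± 4.84, followed by cluster 19 at 7.0% ± 1.99. Cluster 11, led by Nts (neurotensin) and Hmx2, came first for Pnoc at 13.4% ± 2.77, followed by cluster 19 at 9.92% ± 3.01 and cluster 6 at 9.69% ± 2.41. The lowest library of these 3 clusters (6.62%) was still above the highest of the next in line, cluster 18 (6.12%).

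In MGE interneuron-like neurons Tac1 was found in 1.17, 0.974, 2.18 and 0.702% and Pnoc in 1.46, 0.649, 0.436 and 1.05%. Penk was too rare to rank. Of its 64 UMIs in neurons, 27 were in cluster 6 and 13 in cluster 18, whose mean share was 2.67% ± 2.15.

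**Figure D3:**
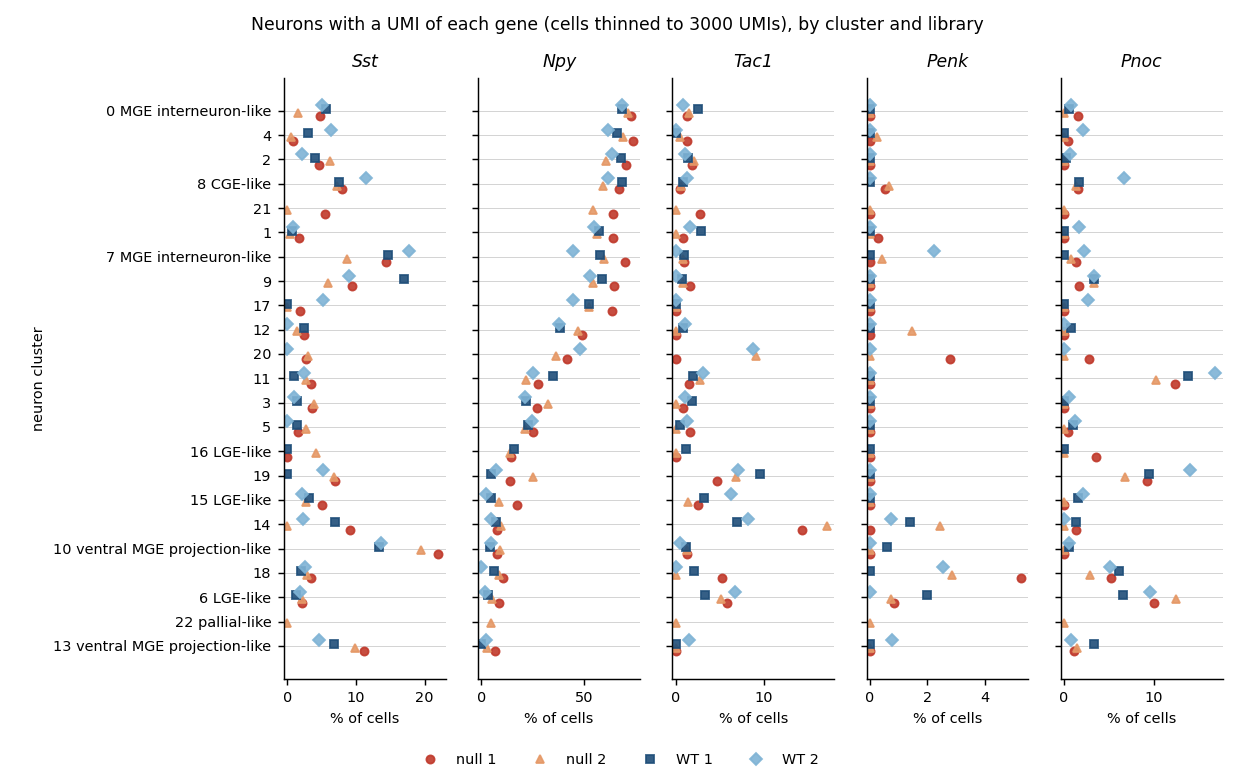
Percent of neurons with a UMI of each gene (cells thinned to 3000 UMIs) in each neuron cluster, with 1 point per library of 20 or more cells, clusters ordered by their Npy share. Npy runs from about 70% in cluster 0 to 2.97% in cluster 13, while Sst is highest in cluster 10 at a mean of 17.1%.

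The genes whose level followed each member most closely were listed by Pearson's r of log2(CPM + 1) over 22 neuron clusters among 10737 genes, as a description, since clusters of the same libraries share cells' depth and library. For Npy they were Sox2 (r = 0.92), Zeb2 (0.92) and Rnd2 (0.90). For Sst they were Tmsb15b1 (0.81), Cntnap3 (0.80) and Dusp4 (0.80), for Tac1 Nefl (0.88), Gpc3 (0.86) and Hs3st4 (0.82), for Pnoc Tppp (0.84), Ykt6 (0.83) and Zcchc12 (0.83), and for Penk Mylip (0.78), Slit3 (0.72) and the somatostatin receptor gene Sstr2 (0.72). Among the members, Tac1 and Pnoc had the highest r (0.56), Npy had negative r with Tac1 (-0.39), Penk (-0.46) and Pnoc (-0.45), and Sst with Npy gave -0.17.

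Interneuron factors were also set beside the members within cells, on the same thinned counts. Zeb2, which directs interneurons towards the cortex, was found in 71.2 to 82.4% of Npy-positive neurons and in 40.5 to 54.7% of neurons without any member. Sst-positive neurons had Zeb2 in 45.3 to 57.8%, a range that overlapped that of neurons without members. Maf, a factor of MGE-derived interneurons, was found in 46.8 to 60.8% of Npy-positive neurons and 19.4 to 28.1% of neurons without members. Pnoc-positive neurons were low in these factors, with Sox6 in 17.1 to 24.1% and Satb1 in 10.6 to 15.9%, against 37.7 to 44.0% and 22.1 to 28.2% of neurons without members.

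The members differed in how their RNA was spread over cells. Among Sst-positive neurons before thinning, 53.8, 53.5, 49.4 and 52.1% had a single UMI. At the other end, 70, 40, 55 and 49 neurons had 10 or more Sst UMIs, 1.92, 1.77, 2.06 and 2.06% of neurons, and these few held 84.3, 92.2, 93.5 and 93.8% of all Sst UMIs of the library's neurons. The richest neuron had 143, 211, 200 and 186. Most Sst message was thus in few neurons, while many marked neurons carried a single molecule, a group in which free RNA cannot be told apart from a low level.

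Of the Sst-rich neurons, 34 of 70, 16 of 40, 21 of 55 and 26 of 49 were ventral MGE projection-like, and 12, 9, 10 and 5 were MGE interneuron-like. CGE-like neurons gave 10, 8, 4 and 9 of them, and unnamed clusters gave 14, 6, 20 and 9. They carried Satb1, a factor needed for Sst interneurons, in 44.9 to 57.5% of cells and Sox6 in 67.3 to 84.3%. Npy was found in 41.4, 42.5, 47.3 and 40.8% of them.

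Npy was spread more evenly. Neurons with 10 or more UMIs made up 14.7, 16.9, 14.6 and 9.10% of neurons and held 55.9 to 69.8% of Npy UMIs, and the richest had 45 to 68. Tac1 resembled Sst on a smaller scale: 9, 10, 4 and 4 neurons with 10 or more UMIs held 67.3, 86.0, 54.5 and 44.6% of its UMIs, with a maximum of 164. Pnoc reached 7 to 12 UMIs and Penk 1 to 5.

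Detection of 2 members in the same neuron was compared with the number expected if both were independent within a library. Sst and Npy were found together in 98, 41, 70 and 49 neurons, against 91.3, 39.2, 55.0 and 36.4 expected, a ratio of 1.16 over all libraries (1.05 to 1.35). The ratio was above 1 in 4 of 4 libraries but small. Summing the expectation over clusters, which takes out the clusters' own levels, gave 1.18 (1.12 to 1.33).

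Npy was found with Tac1 or Pnoc less often than expected. Npy and Tac1 shared 21, 8, 14 and 10 neurons against 29.8, 14.1, 19.2 and 16.8 expected, a ratio of 0.66, and Npy and Pnoc shared 27, 11, 12 and 19 against 37.6, 17.5, 19.2 and 27.1, a ratio of 0.68. Both were below 1 in 4 of 4 libraries. With the expectation summed over clusters the ratios were 0.94 and 1.03, so within clusters the deficit was no longer seen. With a minimum of 2 UMIs for each gene, 1 neuron had Npy and Tac1 against 16.7 expected, and 6 had Npy and Pnoc against 15.1. At this minimum the expectation was again taken over all neurons, not within clusters.

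Tac1 and Pnoc went together, in 3, 4, 4 and 6 neurons against 1.46, 0.598, 0.827 and 1.62 expected, a ratio of 3.77 that was above 1 in 4 of 4 libraries and 2.28 within clusters. The counts behind it are small. Sst with Tac1 (17 neurons, ratio 1.80) ranged from 0 to 3.39 between libraries, and Sst with Pnoc (19 neurons, ratio 1.58) from 1.12 to 3.60 at 1 UMI, with 0 neurons at 2 UMIs against 1.33 expected. Penk was found with another member in 1 to 4 neurons per pair. Doublets, droplets with 2 cells, can also raise these ratios. Between 120 and 352 cells a library were left out for their doublet score, and the part of remaining doublets in the ratios was not tested.

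**Figure D4:**
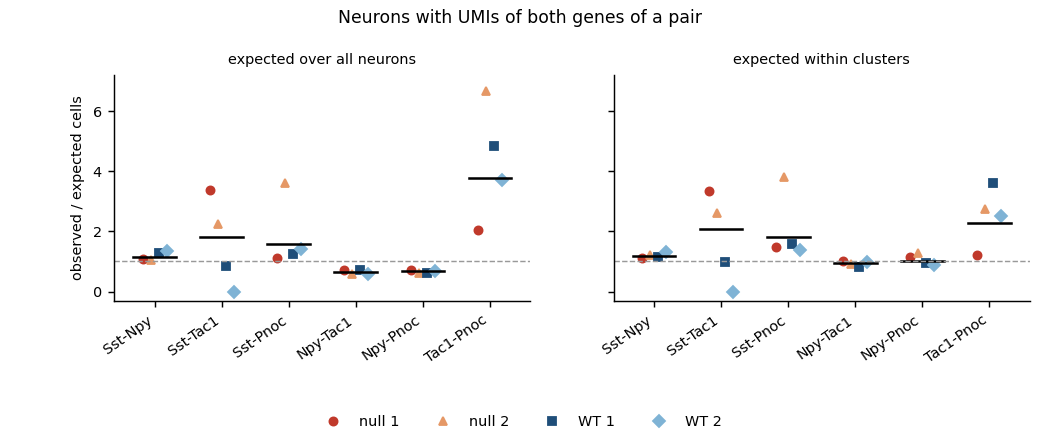
Neurons with UMIs of both genes over the number expected (cells thinned to 3000 UMIs), with 1 point per library, a bar for all libraries pooled and a dashed line at 1; the expectation is taken over all neurons at left and summed over clusters at right. Npy-Tac1 and Npy-Pnoc lie at 0.66 and 0.68 at left and at 0.94 and 1.03 at right, and Tac1-Pnoc is above 1 in every library in both.

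The design compares null with WT neurons to find what changes without St18, and the peptide genes were read from a fit over all genes (edgeR quasi-likelihood test, TMM normalization). Of the 5 members, 0 passed an adjusted p of 0.05 in neurons, where 6 of 13695 genes did (0.0438%). At an unadjusted p under 0.05 there were 2 (Sst and Tac1), against 16.6% of all genes, and DESeq2 called Sst, as it did 2.21% of genes, while its adjusted p of Tac1, Penk and Pnoc was not given. Sst came nearest. Its level was 122 and 113 CPM in null neurons against 226 and 199 CPM in WT neurons, lower in both null libraries than in both WT libraries. The ventral MGE projection-like neurons, which hold much of the Sst, were also fewer in null, at 6.79 and 6.55% of neurons against 8.35 and 13.4% in WT, and their part in the difference was not tested apart from the fit with equal cells per cluster given below. The log2 fold change, null over WT, was -1.0 ± 0.13 (SE), with an edgeR adjusted p of 0.0524. In counts summed over cells, fewer cells making a peptide and less RNA per cell cannot be told apart. A difference of this kind, with all null libraries below all WT libraries in CPM, was met by 13.2% of genes, and the opposite by 42.8%.

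Where the adjusted p lay depended on the fit. Sst was lower in null under 14 of 14 alternatives, at -1.27 to -0.62, and past the threshold in 11 of them, among them DESeq2 (adjusted p = 3.47e-08) and each edgeR fit without 1 of the 4 libraries (adjusted p = 0.000967 to 0.0289), that without null replicate 2 giving -0.90 ± 0.10. These 4 fits called far more genes than the 0.0438% of the fit with all libraries, at 19.5 and 2.67% without null replicate 1 or 2 and 0.909 and 0.474% without WT replicate 1 or 2. In male cells alone, which were fewer (1409, 474, 1672 and 1391 neurons), Sst was at -1.27 ± 0.51 (adjusted p = 0.348, edgeR). With equal numbers of cells of each cluster in every library it was at -0.62 ± 0.14 (adjusted p = 0.106, edgeR). In MGE interneuron-like neurons the null libraries had Sst at 105 and 87.8 CPM and WT had it at 200 and 113 CPM. Null replicate 1 was close to WT replicate 2. The class joins cluster 0, where Sst was scarce (2.64 to 59.8 CPM), and cluster 7 (101 to 566 CPM), and cluster 7 gave 222 of 684, 242 of 308, 109 of 459 and 45 of 285 of its cells, so its level mixes makeup with level per cluster. The log2 fold change was -0.83 ± 0.21 (adjusted p = 0.117, edgeR), where 13 of 10162 genes passed (0.128%) and 0 of the 3 members tested did (1, Sst, at an unadjusted p under 0.05, against 10.0% of genes in either direction and 6.22% lower in null, and by DESeq2, adjusted p = 0.0476, against 0.718% of genes). It passed in 7 of 11 alternatives, among them the edgeR fits without null replicate 1, null replicate 2 or WT replicate 2 (-1.17 to -0.71, in fits that called 16.4, 5.4 and 0.104% of genes) and the edgeR fit with doublets kept, at -1.91 ± 0.25 (adjusted p = 0.000115, where 0.284% of genes passed). That last fit rests on new clusters, and its class was another set of cells (921, 693, 425 and 246, against 684, 308, 459 and 285 here), so its value is not that of this class with doublets added. Without WT replicate 1 the change of Sst in MGE interneuron-like neurons was -0.35 by edgeR. In the male cells of the class (247, 88, 277 and 148) it was -0.05 (adjusted p = 0.985, edgeR).

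The share of neurons with Sst was 4.76% ± 0.98 in null and 4.75% ± 0.43 in WT (SD, n = 2), a difference of 0.0085 percentage points (two-sided exact permutation p = 1). With 2 libraries against 2 the smallest p this test allows is 0.333. Sst-rich neurons made up 1.84% ± 0.10 of null and 2.06% ± 0.0032 of WT neurons, and the exact 95% intervals of all 4 libraries overlapped. Within those neurons the Sst level was 4270 and 5123 CPM in null libraries against 9335 and 8208 CPM in WT, 0.54 times as high. These cells were chosen by their Sst count, so the values are a description with no test. They also depend on depth, since the chosen null cells were deeper (median 7012 and 9292 UMIs against 6114 and 6244) and met the limit at a lower CPM. With cells chosen and measured on the thinned counts, those with 5 or more Sst UMIs were at 5179 and 6717 CPM in null libraries against 8971 and 8287 CPM in WT, a ratio of 0.69, and made up 1.89 and 1.46% against 2.13 and 2.10% of neurons. With 10 or more the ratio was 0.81, and the share was 1.21 and 0.929% in null libraries against 1.76 and 1.72% in WT. At 20 or more UMIs without thinning the share was 1.34 and 0.973% against 1.69 and 1.68%. At these higher limits both null libraries had a lower share than both WT libraries, with counting intervals that still overlapped, and how the lower Sst level divides between fewer rich cells and less Sst in each depends on the limit.

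Cells with 5 or more Sst UMIs gave a ratio of 0.52 and those with 20 or more gave 0.68, all these limits and the thinned values having been added after the data were seen. The cells of each library did not come from the same clusters. In cluster 10 the levels lay near each other, at 1242, 1227, 1356 and 1244 CPM, while in cluster 7 they were 199, 101, 566 and 418, in cluster 9 210, 59.2, 832 and 265, and in cluster 8 230, 275, 405 and 425. Over the 19 clusters with 20 or more cells in each library, null was below WT without overlap in 6, above it in 2 and overlapping in 11. Over all 13695 genes in the same clusters, null was below in 13.3% of pairs of gene and cluster and above in 23.1%. Of the 7 clusters with 250 or more Sst UMIs, 5 had null below, cluster 10 included by a gap of few CPM, against 19.9% of pairs with as many UMIs (27.4% had null above). Clusters of 1 library share their source and are not replicates.

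**Figure D5:**
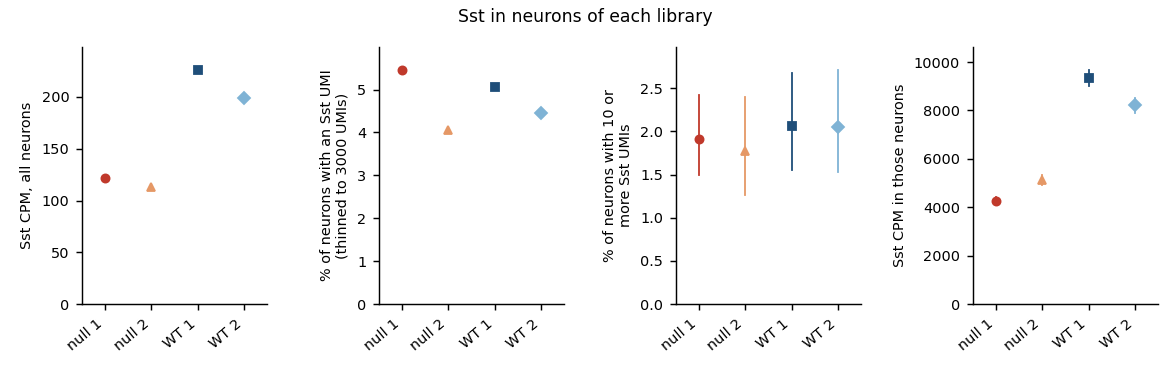
Sst by library: level in all neurons (CPM), percent of neurons with an Sst UMI (thinned to 3000 UMIs), percent of neurons with 10 or more Sst UMIs and level in those neurons (CPM), with vertical lines in the right-hand pair of panels for exact 95% counting intervals. The null libraries are lower in both levels (122 and 113 against 226 and 199 CPM over all neurons), the last of which depends on depth (0.81 times WT with 10 or more thinned UMIs, in place of 0.54 times), while the libraries overlap in the percent with a UMI and within their intervals in the percent with 10 or more.

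Npy levels overlapped, at 578 and 502 CPM in null neurons against 638 and 446 CPM in WT neurons (log2 fold change -0.16 ± 0.19, edgeR adjusted p = 0.702). Its share was 44.3% ± 2.29 in null and 37.6% ± 4.52 in WT, higher in both null libraries by a mean of 6.71 percentage points (exact permutation p = 0.333, 0.833 after Benjamini-Hochberg adjustment over the 5 members). The share expected from free RNA was also higher in null, 5.43 and 4.28% against 2.27 and 2.18%, and its part in the difference was not tested. With a minimum of 2 UMIs the null libraries were no longer both above WT, with means of 31.6 and 28.8% (exact permutation p = 0.667). In MGE interneuron-like neurons the log2 fold change of Npy was -0.29 ± 0.17 (adjusted p = 0.585, edgeR), and leaving out 1 library gave -0.57 without null replicate 1, -0.06 without null replicate 2, -0.22 without WT replicate 1 and -0.36 without WT replicate 2. The first of these passed (adjusted p = 1.13e-14, edgeR), in a fit with 1 null library that called 16.4% of all genes, and the others did not (adjusted p = 0.727, 0.999 and 1.0, edgeR).

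The Tac1 level was 19.9 and 26.3 CPM in null neurons against 12.9 and 14.8 CPM in WT neurons, without overlap, as for 42.8% of all genes with null higher. A single neuron held 124 of the 468 Tac1 UMIs in null replicate 1, and another 164 of the 521 in null replicate 2. In WT the richest neuron held 47 of 198 and 28 of 202. The levels without these neurons were not computed. The log2 fold change of Tac1 was 0.58 ± 0.15 (edgeR adjusted p = 0.155). It was past the threshold in 3 of 14 alternatives (library totals alone, no filter, and without null replicate 1 at 0.75, adjusted p = 0.00445, all by edgeR, in fits that called 2.73, 3.15 and 19.5% of genes). With equal cells of each cluster it was 0.13 ± 0.30 (adjusted p = 0.88), with doublets kept 0.38 (adjusted p = 0.295), and in male cells it turned to -0.60, again by edgeR. Its share of neurons was 1.62% ± 0.23 in null and 1.91% ± 0.21 in WT (exact permutation p = 0.667), so the level and the share pointed in opposite directions. Pnoc stood at 10.8, 9.99, 8.25 and 14.6 CPM, log2 fold change -0.27 ± 0.23 (edgeR adjusted p = 0.577). Penk gave 0.53 ± 0.48 (edgeR adjusted p = 0.599) on 64 UMIs in all.

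Scaling by library totals alone moved the median log2 fold change of all genes by 0.15, and on that scale Sst was at -0.85 ± 0.14 (adjusted p = 0.00327) and Tac1 at 0.74 ± 0.17 (adjusted p = 0.0259, edgeR for both). In progenitors the fit called 0 of the 4 members tested, where 11 of 13495 genes passed (0.0815%), and at an unadjusted p under 0.05 there were 2 (Tac1 and Sst), against 17.2% of genes. Npy there was at 0.03 ± 0.12 (edgeR adjusted p = 0.929). Tac1 there was at -1.22 ± 0.38 (adjusted p = 0.190) and Sst at -2.01 ± 0.67 (adjusted p = 0.210), the latter resting on the 5 Sst-rich cells of WT replicate 2.

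The other genes of peptide signalling were read from lists chosen for this tissue. Of 16 other neuropeptide precursors, 7 had enough counts to be tested in neurons and 0 passed by edgeR or DESeq2, while 2 were lower in null at an unadjusted p under 0.05, as were 9.7% of all genes. The list's median log2 fold change was -0.44, against -0.0042 over all genes. Nts, the neurotensin precursor and marker of cluster 11, had 7.23 and 7.72 CPM in null libraries against 12.3 and 25.2 CPM in WT (-1.47 ± 0.28, edgeR adjusted p = 0.0854). Pomc, the melanocortin and endorphin precursor, was at 8.02 to 12.4 CPM, Nmb (neuromedin B) at 2.01 to 4.09 and Nppc (C-type natriuretic peptide) at 1.36 to 2.71. These 4 had the highest mean levels of the list, all far below Npy and Sst.

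The genes that process and pack peptides covered a wide range of levels. All 12 were tested in neurons and 0 passed by edgeR, with a median log2 fold change of -0.10. At an unadjusted p under 0.05 there were 2, against 16.6% of all genes, and DESeq2 called Pcsk1n, as it did 2.21% of genes. Scg5, a chaperone of the proprotein convertase Pcsk2, was at 216 to 294 CPM, the granin Scg3 at 169 to 192, and Cpe, the carboxypeptidase that trims peptide ends, at 146 to 182, while the lowest of the list, Vgf, named after its values were seen, was at 1.21 to 2.21 CPM. Pcsk1n, an inhibitor of the convertase Pcsk1, had 157 and 109 CPM in null libraries against 160 and 228 CPM in WT (-0.68 ± 0.21, edgeR adjusted p = 0.203).

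Receptors of the 5 peptides were low. Of 15, 7 were tested and 0 passed by edgeR or DESeq2, also 0 at an unadjusted p under 0.05, with a median of -0.0016. Oprl1, the nociceptin receptor, led at 8.51 to 11.2 CPM, followed by the neuropeptide Y receptors Npy2r (3.59 to 4.74) and Npy1r (3.22 to 3.93) and the mu opioid receptor Oprm1 (1.76 to 2.76).

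Of 12 interneuron factors, all were tested and 0 passed by edgeR in neurons, while DESeq2 called Zeb2 higher and Lhx8 lower, against 2.21% of all genes called by it, and the list's median was 0.15. These 2 were also the ones at an unadjusted p under 0.05 by edgeR, against 16.6% of all genes. Zeb2 had 666 and 846 CPM in null libraries against 530 and 428 CPM in WT (0.50 ± 0.16, edgeR adjusted p = 0.199). Lhx6, which specifies MGE interneurons, was at 349 to 499 CPM and Sox6, which acts after it, at 273 to 378 CPM. Within MGE interneuron-like neurons, of the same lists 2, 10, 2 and 12 genes were tested and 0 passed by edgeR or DESeq2, with 1 gene, Pcsk1n, lower in null at an unadjusted p under 0.05, where 6.22% of all genes were lower and 10.0% passed in either direction.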

How the data were processed

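The authors aligned the reads with Cell Ranger (5.0.1 per the labels, 4 per the file headers; build GRCm38) and deposited raw UMI counts for all barcodes of each library. From these counts, cells with at least 3000 UMIs, 200 genes and at most 10% mitochondrial UMIs were kept. The highest Scrublet scores (scanpy 1.11.5) were left out, at 0.8% per 1000 cells, since its own threshold called at most 0.0443%. Clusters were made in Seurat 5.3.0 (2000 variable genes without the members, 49 components, resolution 1.4). Clusters were named from at least 3 markers in 25% of cells at a log2 fold of 1. Counts summed per library were tested with edgeR 4.0.16 (filterByExpr, TMM, quasi-likelihood, Benjamini-Hochberg), tested on simulated data, with DESeq2 1.42.0 as an alternative. Intervals and floors (95%, exact; 3 counts) cover counting error only. Replicates were numbered in sample order, and whether they are separate litters is not given, so p-values measure the spread between these libraries. Of each gene list, tested and called genes were counted and the 4 with the highest mean CPM named, and 3 similar genes were named per member. A listed gene is counted but not reported here. The members and lists were chosen with earlier results of these data known. The bounds of 250 and 600 UMIs for empty droplets were set after library totals were seen.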

Additional observations from a re-analysis of the deposited data

Results flagged for a closer look

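Npy in droplets without a cell was 2.65 times as high in the null libraries as in WT (292 and 250 against 108 and 96.2 CPM). These droplets lie outside the cells that were compared and serve the report as the measure of free RNA. The level in both null libraries was above that of both WT controls. How many of all genes differed in this way in droplets was not counted, so the gap is not read as particular to Npy. Among neurons, 42.8% of genes were higher in both null libraries than in both WT libraries. In neurons Npy had overlapping levels between the genotypes (446 to 638 CPM). In the same droplets the genotypes overlapped for Sst (69.3 to 83.7 CPM), Tac1 (14.4 to 25.1 CPM) and Penk (0.702 to 1.11 CPM), while Pnoc was at 9.24 and 5.54 CPM in null and above 10 CPM in both WT libraries.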

How the results depend on the processing

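No paired analysis was possible because the labels carry no replicate numbers. The number of genes called in neurons (6) was 10 with RLE size factors, 374 with library totals alone, 670 with no filter, 302 with DESeq2, 1 in male cells, 37 with doublets kept, 10 with members among the clustering genes, and 68 to 2713 with a library left out. In MGE interneuron-like neurons (13) it was 96 with no filter, 73 with DESeq2, 0 in male cells, 39 at 5000 UMIs, 31 with doublets kept, and 11 to 1721 with a library left out. The cause of these shifts was not tested. Leaving out a library leaves 1 sample in an arm, which is assumed to vary like the others. The log2 fold change of Npy in neurons turned to 0.013 in male cells and 0.044 at 5000 UMIs and ranged from -0.41 to 0.15 with a library left out (0.15 without WT replicate 1), that of Tac1 to -0.60 in male cells and that of Pnoc to 0.17 without WT replicate 2 (range -0.62 to 0.17). In MGE interneuron-like neurons Tac1 turned to 0.75 without WT replicate 1 (range -1.23 to 0.75). Sst ranged from -1.11 to -0.89 in neurons and from -1.17 to -0.35 in MGE interneuron-like neurons with a library left out.

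The difference in the share of neurons with Sst (null minus WT, percentage points) turned to -0.400 at 2 UMIs, -0.131 with doublets kept and -0.225 in male cells, and ranged from -0.682 to 0.699 with a library left out. That of Tac1 turned to 0.0771 at 2 UMIs, and that of Pnoc to 0.118 without thinning and to -1.28 to 0.269 with a library left out. Those of Npy (3.51 to 9.90) and Penk (0.0416 to 0.132) kept their sign. Observed over expected cells, with the expectation summed over clusters, were 0.94 for Npy-Tac1, 0.72 for Npy-Penk and 1.03 for Npy-Pnoc. At 2 UMIs, with the expectation taken over all neurons, the same pairs gave 0.060, 1.0 and 0.40, with 0 for Sst-Pnoc and 19.7 for Tac1-Pnoc. Npy-Pnoc was 0.75 without thinning. With a library left out the ratios ran from 1.13 to 1.22 for Sst-Npy, 0.85 to 2.34 for Sst-Tac1, 1.26 to 1.85 for Sst-Pnoc, 0.64 to 0.68 for Npy-Tac1, 0.31 to 0.50 for Npy-Penk, 0.66 to 0.69 for Npy-Pnoc and 3.32 to 4.59 for Tac1-Pnoc. Penk had 64 UMIs in all neurons, so depth limits what can be said of it.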
